A study of Arabidopsis thaliana with 8 samples.

Results

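Of the 20347 loci counted in Arabidopsis thaliana phloem exudate small RNA, 5 are described here: the nuclear glycine tRNA loci with the most counts, chosen by their summed count over the 8 libraries. In the deposited table they are ath-b10r1-2114, ath-b10r1-15771, ath-b10r1-11051, ath-b10r1-5593 and ath-b10r1-14749, and each is called here, in the same order, by the tRNA gene it holds: AT4G18815, AT1G12590, AT5G11225, AT2G27850 and AT5G59385. Because the counts chose them, their high level is a description and not a result. The 4 −Fe libraries come from Col-0 seedlings kept for 3 days on medium without iron, and the 4 +Fe libraries from seedlings kept for the same 3 days on medium with iron, both after 11 days of growth. Each library was made from the EDTA-facilitated exudate of many pooled rosettes, a source without cells, so a replicate is a pool of plants. The counts give the make-up of a library and not the amount of RNA in an exudate, so more RNA from one locus and less from the others cannot be told apart.

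A tRNA carries an amino acid to the ribosome, and a glycine tRNA (tRNA-Gly) delivers glycine. Plant genomes hold many tRNA genes for each amino acid, and many copies are identical or nearly so. Mature tRNAs can be cut into shorter RNAs, named tRNA fragments or tRFs, which have been found in the phloem sap of pumpkin, where they were shown to inhibit translation. A locus here is a stretch of genome in which ShortStack gathered small RNA reads, so its length is that of the gathered region and not of the tRNA.

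The AT4G18815 locus lies at chr4:10325670-10326360, and its tRNA-Gly gene covers 10.4% of its 691 nt, beside sequence of the protein-coding gene AT4G18810. The AT1G12590 locus (chr1:4285431-4285975, 545 nt) overlaps PEPKR1 (AT1G12580), a protein kinase gene. The AT2G27850 locus (chr2:11864143-11865225, 1083 nt) overlaps AXS1 (AT2G27860), which encodes an enzyme that makes UDP-apiose and UDP-xylose. The other two, AT5G11225 (chr5:3578150-3578372, 223 nt) and AT5G59385 (chr5:23953853-23954031, 179 nt), contain no second gene. All 5 genes are 72 nt long, as are 13 of the 41 nuclear glycine tRNA genes in the gene table. The choice did not use length, but near-identical genes can share reads, so length may not be independent of it. Coordinates are those of the deposited table, on TAIR10 as the submitters' processing notes name it. The counts do not say how many reads fell on the tRNA and how many on the rest of a locus.

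Summed over the 8 libraries, the 5 loci held 25090606 counts. That is 26.0% of all counts, 69.5% of the counts at nuclear tRNA loci and 98.4% of those at nuclear glycine tRNA loci. The leading locus, AT4G18815, had 9436160 counts and ranked 3 in the whole table. It was followed by AT1G12590 with 6532891 (rank 4) and AT5G11225 with 5078205 (rank 5), then by AT2G27850 with 2386017 (rank 7) and AT5G59385 with 1657333 (rank 8). Just outside the choice, the glycine locus AT5G45745 had 311401 counts, and the fifth locus had 5.32 times as many. The next 2 glycine loci, AT1G06880 and AT1G06860, had 23258 and 22544 counts.

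Library totals lay between 10589005 and 13163733 counts in −Fe and between 10347644 and 14116739 in +Fe. Replicates 2 and 4 of +Fe stood apart, with a count at 12117 and 11269 loci, whereas the other 6 libraries had counts at 14214 to 16201. The exudate label was compared with marker genes, although small RNA counts over a gene do not measure its mRNA. Of 4 phloem genes, SUC2, the sucrose transporter of companion cells, had 13 counts in all, and APL, SEOR1 and PP2-A1 had no locus. The 4 leaf mesophyll genes RBCS1A, RCA, LHCB1.1 and LHCB1.3 had 377 to 5243 counts each over all 8 libraries.

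The first question was whether the share of the libraries held by these loci differed between iron-deficient and iron-supplied plants. The leading locus, AT4G18815, held 8.19%, 9.74%, 10.1% and 10.7% of the counts in −Fe replicates 1 to 4, against 9.27%, 9.58%, 11.3% and 8.68% in +Fe replicates 1 to 4. For AT1G12590 the −Fe shares were 5.66%, 6.73%, 7.02% and 7.45%, against +Fe shares of 6.43%, 6.62%, 7.79% and 6.02%. The lowest library was −Fe 1 and the highest +Fe 3 at both loci, and the groups overlapped. The third locus, AT5G11225, held 4.40%, 5.23%, 5.46% and 5.79% in −Fe, against 4.995%, 5.16%, 6.07% and 4.67% in +Fe. The shares of AT2G27850 were 2.07%, 2.47%, 2.56% and 2.71% in −Fe, against 2.34%, 2.42%, 2.84% and 2.19% in +Fe. At AT5G59385 they were 1.44%, 1.71%, 1.77% and 1.89% in −Fe, against 1.63%, 1.68%, 1.98% and 1.53% in +Fe. The order of the 5 loci was the same in 8 of 8 libraries. In each library, all 5 loci lay on the same side of their own mean share, above it in −Fe 2, 3 and 4 and in +Fe 3, and below it in −Fe 1 and in +Fe 1, 2 and 4. Each count behind these shares was between 152717 and 1512774, so the Wilson 95% interval of a share reached at most 0.0179 percentage points to either side. Such intervals cover counting error only and not the spread between libraries. The libraries had no molecular identifiers and several reads can stem from 1 molecule, so the intervals may be too narrow even for counting error.

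**Figure D1:**
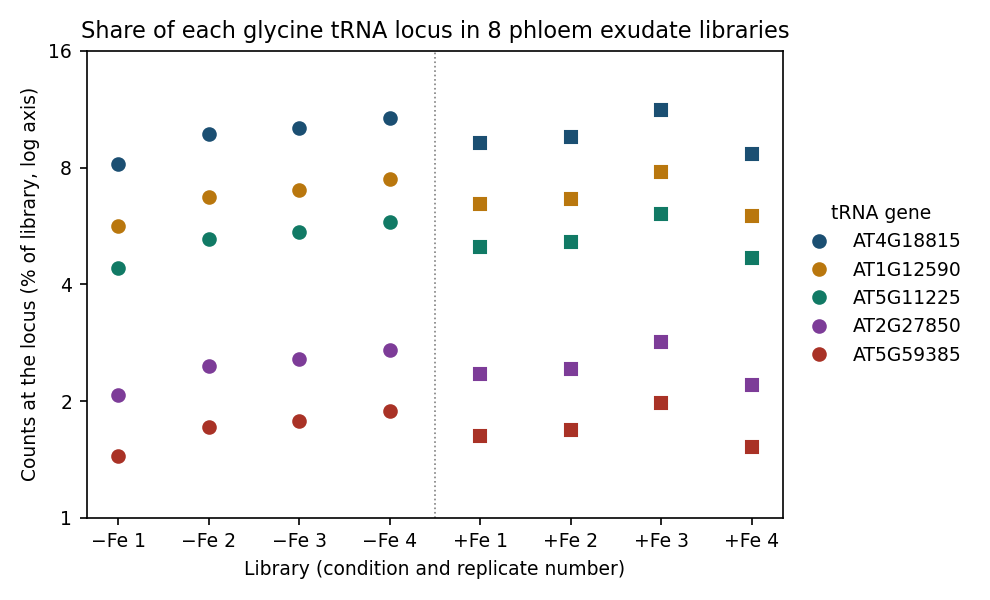
Counts at each of the 5 loci as a percentage of the library's total count (log axis), with 1 point per locus in each of the 8 libraries, −Fe as circles left of the dotted line and +Fe as squares right of it. The 5 loci keep their order and move up and down together, and the groups overlap, from 8.19% to 11.3% at AT4G18815 and from 1.44% to 1.98% at AT5G59385.

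Together the 5 loci held 21.8%, 25.9%, 26.9% and 28.6% of the counts in −Fe, against 24.7%, 25.5%, 30.0% and 23.1% in +Fe. The means were 25.8% ± 2.91 in −Fe and 25.8% ± 2.94 in +Fe (SD, n = 4 each), a difference of −0.00299 percentage points (exact two-sided permutation test, 70 arrangements, p = 1.00, where the smallest possible p is 0.0286). The direction of so small a difference depended on single libraries, since it was 1.34 points without −Fe 1 and 1.38 points without +Fe 3. Without +Fe 2 and 4 together it was −1.52 points (exact permutation test, p = 0.667, where a p of 0.05 is out of reach). Over all 8 libraries the summed share had a coefficient of variation (CV) of 10.5%. At the single loci the CV was 10.4% to 10.6%, and the SD between libraries was 47 to 119 times the SD that counting alone gives.

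The denominator was varied, because ribosomal RNA took 44.2% ± 4.88 of the −Fe counts and 43.4% ± 4.94 of the +Fe counts. Outside rRNA loci, the 5 loci held 46.3% ± 4.95 in −Fe and 45.6% ± 3.31 in +Fe (exact permutation test, p = 0.914, n = 4 each). Among nuclear tRNA counts alone they held 68.0% ± 3.92 in −Fe and 71.1% ± 2.54 in +Fe, a difference of −3.06 points (exact permutation test, p = 0.229, n = 4 each). The nuclear tRNA loci outside the 5 took 12.2% ± 2.35 of the −Fe libraries and 10.6% ± 2.14 of the +Fe libraries (exact permutation test, p = 0.371, n = 4 each). None of these tests passed a p of 0.05. The tRNA share differed by more than the SD of the +Fe libraries but by less than that of the −Fe libraries.

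In the edgeR fit over 17722 loci, all 5 log2 fold changes (−Fe over +Fe) were 0.23, with standard errors of 0.245 to 0.281. The unadjusted edgeR p was 0.352 to 0.420, and the Benjamini-Hochberg adjusted p was 0.998 each. None of the 5 was called by the thresholds of the study, an adjusted p under 0.1 and a log2 change of 0.5 or more in either direction. Over all loci tested edgeR called 0, which is 0.0%, with 1186 loci (6.69%) at an unadjusted p under 0.05, and DESeq2 called 34 of 12943 (0.263%), again with none of the 5. The CPM of the groups did not overlap at 524 loci (2.96%), none of them a member. The scaling set most of the fold change: with library totals in place of TMM factors, the median over the 5 loci was 0.00022 and that over all loci −0.12, against 0.23 and 0.07 with TMM. Relative to the median of all loci, the 5 were higher by 0.17 with TMM and by 0.12 with library totals. The 2171 loci with at least 100 counts in every library had lower medians, −0.07 with TMM and −0.26 with library totals. Because the loci moved together, the 5 fold changes are close to a single measurement and not 5 separate ones.

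The second question was how the counts were divided among the 5 loci. As shares of their own sum, AT4G18815 held 37.6% ± 0.0264 (SD, n = 8 libraries), AT1G12590 26.0% ± 0.0270, AT5G11225 20.2% ± 0.0224, AT2G27850 9.51% ± 0.0128 and AT5G59385 6.61% ± 0.0133. For the leading locus the 8 values ran from 37.55% to 37.64%, and this span of 0.0900 points was the widest among the 5. The SD between libraries was 0.756 to 1.07 times the SD of counting alone. Shares of the library, from the same 8 libraries, had an SD 47 to 119 times that of counting. Each library is a separate pool of plants, and what part this has in that spread was not tested. Both comparisons treat reads as independent, which amplified reads are not. The largest difference between conditions was −0.0158 points, at AT5G11225 (exact permutation test, p = 0.257, n = 4 each), and the 5 p-values lay between 0.257 and 0.886.

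**Figure D2:**
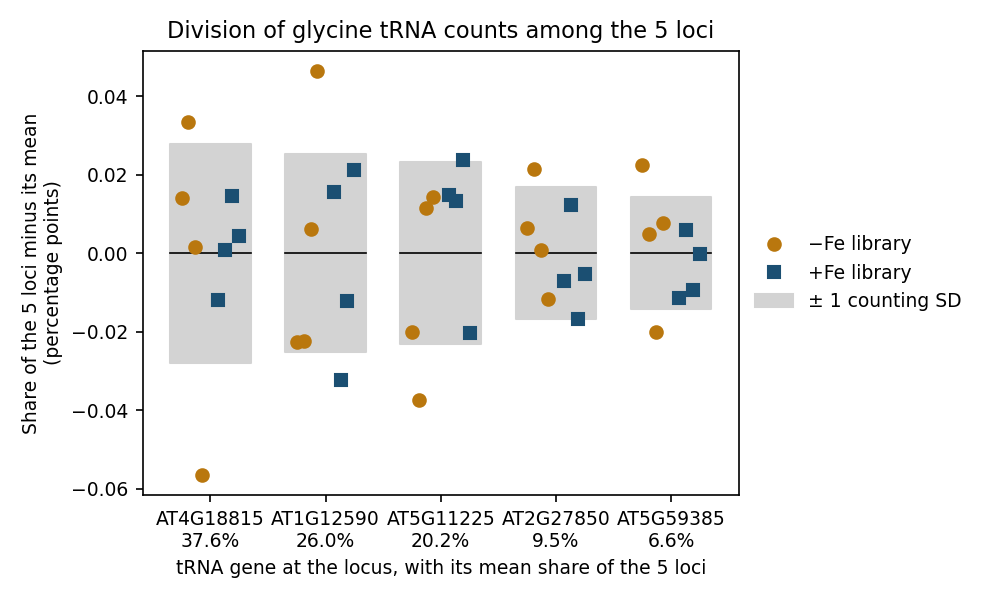
Share of the summed count of the 5 loci held by each locus, minus its mean over the 8 libraries (percentage points), with −Fe libraries as circles, +Fe libraries as squares and the shaded band at 1 counting SD to either side of 0. The points scatter about as widely as the band, and the widest span is 0.0900 points, at AT4G18815, which holds 37.6% of the sum.

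A chi-square index, the chi-square of equal division in all libraries over its degrees of freedom, is near 1 when libraries differ by counting error only. For the 5 loci it was 25.8 on 28 degrees of freedom, or 0.922. Within −Fe it was 1.45 and within +Fe 0.514, and leaving out each library in turn gave 0.728, without −Fe 4, to 1.03. The same index for the 5 leading histidine tRNA loci was 675, for those of glutamic acid 350, for alanine 40.1 and for aspartic acid 2.01. At the same spread the index grows with the number of counts. These were 25090606 at the 5, but 513945 at the alanine and 305194 at the aspartic acid loci. The widest span of a share was 3.41 points among the histidine loci and 5.30 points among those of glutamic acid. It was 6.25 points for alanine and 1.07 points for aspartic acid, against 0.0900 points among the 5. The glycine loci ranked 7 to 11 had an index of 44.2 on far fewer counts, 69098 in all. These indices are descriptions, and how the loci of other isotypes differ from the 5 was not tested.

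The 10 ratios between pairs of loci show the same in another form. The ratio of AT4G18815 to AT1G12590 was 1.446, 1.447, 1.444 and 1.440 in −Fe, against 1.443, 1.446, 1.446 and 1.444 in +Fe, with a mean of 1.44 ± 0.00238 over all 8 libraries. The leading locus had 1.86 ± 0.00297 times the counts of AT5G11225, 3.95 ± 0.00443 times those of AT2G27850 and 5.69 ± 0.0121 times those of AT5G59385 (SD, n = 8). The SD was 0.537 to 1.13 times that of counting over the 10 pairs. No pair was separated between the groups: the exact permutation p lay between 0.286 and 0.943 (n = 4 each), and the smallest value adjusted over the 10 pairs was 0.743. Without +Fe 2, the ratio of AT4G18815 to AT2G27850 was 3.953 ± 0.00232 in −Fe and 3.959 ± 0.00366 in the 3 remaining +Fe libraries, with an exact permutation p of 0.0286 before adjustment, the smallest these 7 libraries allow. A pair of neighbours in the order differed by far more than this spread, the closest being AT1G12590 and AT5G11225 at a ratio of 1.29 ± 0.00167.

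The near-constant division carried on to the sixth locus, with a spread somewhat above that of counting. The AT5G45745 locus (chr5:18558522-18558923), whose tRNA gene is also 72 nt long, had 1.24 ± 0.00876 counts per 100 counts of the 5 (SD, n = 8 libraries; range 1.23 to 1.25). With it the chi-square of all 6 loci was 38.5 on 35 degrees of freedom, against 25.8 on 28 for the 5 alone. The log2 ratio of the sixth locus to the summed 5 had an SD of 0.0102 over the 8 libraries, where counting alone gives 0.0075. Near-identical tRNA genes can share reads, and how ShortStack placed reads matching several genes is not given in the sources used here. The split of counts among these copies, and so the level of any one copy, is therefore uncertain, and the part that shared reads have in the constant division was not tested.

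The gene table lists 41 nuclear glycine tRNA genes, and 34 loci overlap them, 30 with a count. By gene length, 13 of these loci hold a 72 nt gene, the 5 among them, and 20 hold a 71 nt gene. Outside the 5, which were chosen for their counts, the 72 nt loci had 318702 counts and the 71 nt loci 93046. Of the 72 nt counts, 311401 were at the sixth locus, and the other 7 loci of that length had 7301, fewer than the 71 nt loci. A 72 nt gene did not go with a high level at each locus, since AT5G11325, AT5G59395 and AT3G44955 had 48, 20 and 16 counts and 2 more had none. The loci with 71 nt genes did not follow the 5 closely. For each 1000 counts of the 5 they had 3.07, 3.90, 3.42 and 2.83 in −Fe, against 3.10, 5.19, 3.08 and 6.12 in +Fe (exact permutation test, p = 0.286, n = 4 each). The highest values were in +Fe 2 and 4, the libraries with the fewest loci detected, and what part this has in the difference was not tested. Of the 29 glycine loci outside the 5, 25 were tested and edgeR called 0, with 0 at an unadjusted p under 0.05. Over all 17722 loci tested edgeR also called 0 (0.0%), with 6.69% at an unadjusted p under 0.05. Of the 25 loci, 11 had a positive and 14 a negative log2 fold change, against 9471 and 8251 over all loci. Their median was −0.05 against 0.07 over all loci. DESeq2 called none of them either, where it called 0.263% over all loci.

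**Figure D3:**
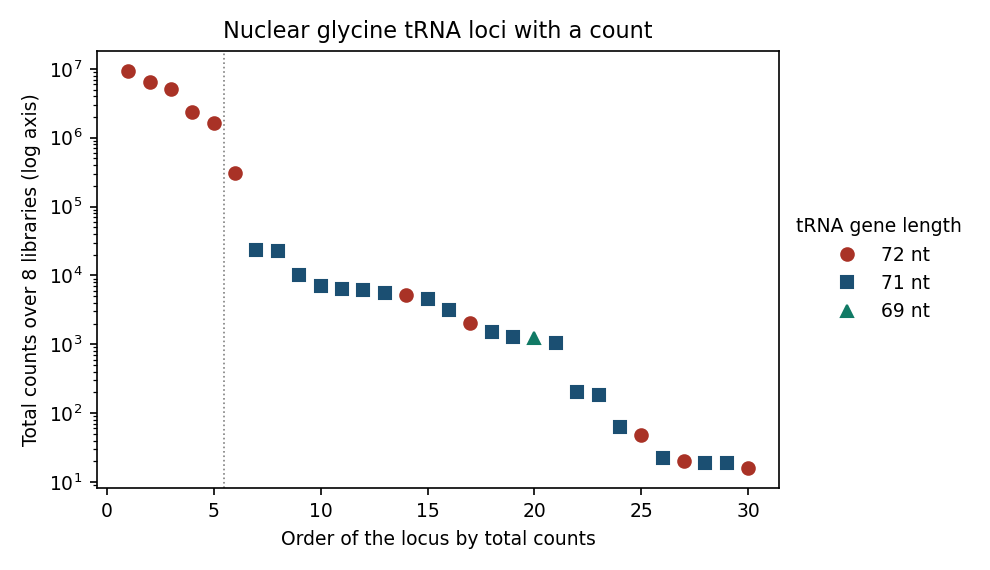
Counts summed over the 8 libraries at each glycine tRNA locus with a count (log scale), ordered from most to fewest and coloured by the length of the tRNA gene, with a dotted line after the fifth. The 5 loci and the sixth, all with 72 nt genes, stand above the rest, and the seventh has 23258 counts.

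The pattern of every well-counted locus was then set beside that of the 5. Likeness was measured as the SD, over the 8 libraries, of the log2 ratio of a locus to the summed 5, for 2171 loci with at least 100 counts in every library. The 5 themselves, which are part of that sum, had SDs of 0.00101 to 0.00290, and the median of the 2166 other loci was 0.47. The closest was AT5G45745 with an SD of 0.0102. The next were a locus with no tRNA gene at chr1:11502984-11513009 (2249 counts) with 0.13 and the glutamic acid tRNA locus AT4G18725 (chr4:10301940-10302089, 162364 counts) with 0.13. A wide gap thus followed the sixth glycine locus. At the chromosome 1 locus counting alone gives an SD of 0.09.

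**Figure D4:**
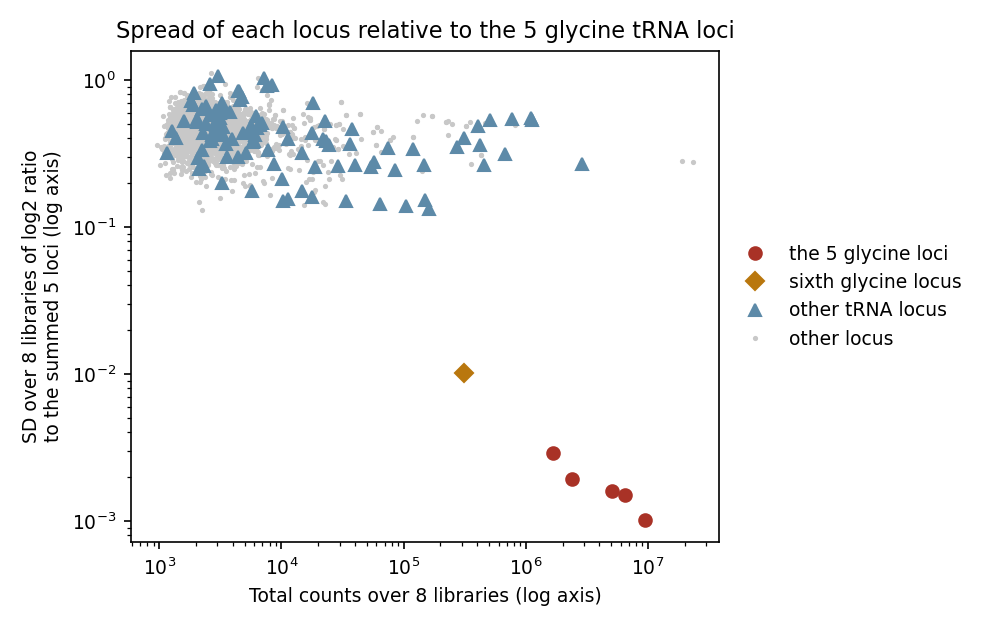
Likeness to the 5 loci against total count (log scale) for loci with at least 100 counts in every library. The vertical axis is the SD over 8 libraries of the log2 ratio to the summed 5 (log scale). The 5 and the sixth glycine locus lie at 0.0102 or lower, and the next at 0.13.

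In the deposited table, loci of nuclear histidine tRNA genes came next after glycine with 4722724 counts, then those of glutamic acid with 4534572 and alanine with 546111, an order that holds for these locus counts only. The 5 glycine loci had 3.94, 4.36, 5.45 and 5.27 counts for each histidine tRNA count in −Fe, against 5.41, 6.61, 5.83 and 6.84 in +Fe. The groups overlapped, since −Fe 3 lay above +Fe 1. The mean ratio was 4.75 ± 0.723 in −Fe and 6.17 ± 0.667 in +Fe (SD, n = 4 each), a log2 difference of −0.38 (exact permutation test, p = 0.0571). It reached p = 0.0286 in the exact test only without −Fe 3, at −0.45. Without +Fe 2 and 4 together, it was −0.25 (exact permutation test, p = 0.200), but the libraries then left have too few arrangements to reach a p of 0.05. At the leading histidine locus, AT1G07760 (chr1:2406595-2407170, 2893661 counts), the edgeR log2 fold change was 0.57 with a standard error of 0.26 and an adjusted p of 0.645.

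For each glutamic acid tRNA count the 5 loci had 7.70, 3.70, 4.47 and 7.83 counts in −Fe, against 8.38, 4.23, 5.23 and 6.93 in +Fe. High and low libraries had the same numbers in both groups, with replicates 1 and 4 high and 2 and 3 low. The means were 5.93 ± 2.15 in −Fe and 6.19 ± 1.84 in +Fe, a log2 difference of −0.09 (exact permutation test, p = 0.714, n = 4 each). That test does not use the replicate numbers, and the SDs include the spread that same-numbered libraries share. Same-numbered libraries were also compared (exact sign-flip permutation test, p = 0.375, n = 4 pairs, where the smallest possible p is 0.125). The sign of the log2 difference turned without −Fe 2 (0.11), −Fe 3 (0.02) or +Fe 1 (0.07). The leading glutamic acid locus, AT1G20170 (chr1:6995258-6995360, 1121074 counts), had a likeness SD of 0.53, whereas the leading histidine locus had 0.27. The relation of glycine to other tRNA counts therefore varied between libraries far more than the relations among the 5 loci. The log2 ratios between pairs of the 5 had SDs of at most 0.00396. What part shared reads have in this contrast was not tested.

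**Figure D5:**
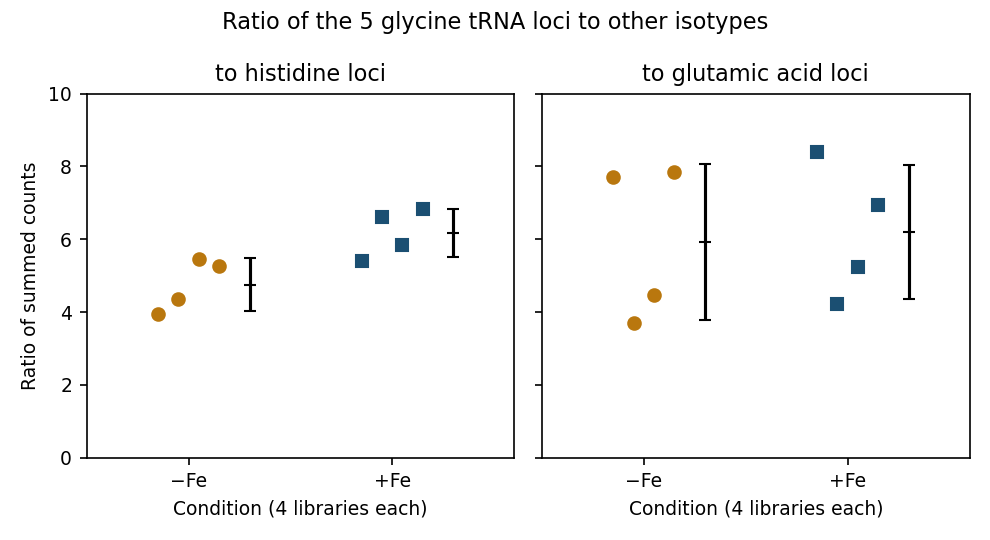
Counts of the 5 glycine loci for each histidine or glutamic acid tRNA count, 1 point per library, −Fe left of +Fe, with the mean ± SD (n = 4 each). The histidine ratio averages 4.75 in −Fe and 6.17 in +Fe with overlapping points, and the glutamic acid ratio 5.93 in −Fe and 6.19 in +Fe.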

How the data were processed

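Adapters were removed by the authors with Cutadapt without a size limit, and reads were aligned and quantified with ShortStack. The deposited table holds raw counts per locus and library, without normalization, and a sum column that was not used. Reads were not analysed here. The build is TAIR10 per the submitters' processing notes, and genes were assigned by position (at least 1 nt of overlap) from the TAIR10.1 gene table. Libraries were grouped by their labels.

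All loci with 10 counts or more in total were fitted in edgeR 4.0.16 (limma 3.58.1, R 4.3.3) with TMM normalization, the condition as the only term and quasi-likelihood tests. p-values were adjusted by Benjamini-Hochberg over all tested loci. DESeq2 1.42.0 was an alternative. Single values were compared by exact two-sided permutation tests over 70 arrangements, in Python 3.11.15 with scipy 1.17.1. Arrangements were fewer where libraries were left out or where the signs of same-numbered differences were flipped. The scripts were tested on simulated data. Other scalings, filters, thresholds and denominators, a replicate block and leaving out each library were tried. The added sixth locus, leaving out +Fe 2 and 4 together, and leave-one-out of the division were chosen after seeing the data.

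The 5 loci, lists and tests were chosen with earlier results of these data known, among them the direction of the histidine share. Named loci are the 5, the 3 glycine loci next in counts, other glycine loci with an unadjusted edgeR p under 0.05 (there were none), the 3 loci most like the 5, and the leading histidine and glutamic acid loci. The 72 nt loci with few counts were named after their values were seen.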

Additional observations from a re-analysis of the deposited data

Results flagged for a closer look

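In 1 of 64 groups of 4 libraries examined, a library lay far from the other 3. The log2 ratio of AT1G12590 to AT2G27850 was 1.45 in +Fe 2, and its gap to the nearest library was 0.979 of the group's range. On the linear scale the ratio was 2.729 to 2.746 in the −Fe libraries, against 2.731 in +Fe 2 and 2.741 in each of the other 3 +Fe libraries. Chance flags about 1 in 20 such groups.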

How the results depend on the processing

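None of the 5 loci was called under any alternative. Their log2 fold changes lay between −0.00130 and 0.33, and their edgeR adjusted p between 0.816 and 1.00. With library totals for scaling, AT4G18815 (−0.00041) and AT5G11225 (−0.00130) changed sign. Leaving out a library moved the fold changes between 0.05 (without −Fe 4) and 0.33 (without −Fe 2). The summed share (−0.00299 points) changed sign to 0.741 points outside rRNA, to 0.103 points among glycine counts and to 0.21 as log2 CPM with TMM factors, and leaving out each library gave −0.933 to 1.38 points. For the glutamic acid ratio this range was −0.26 to 0.11 and for the histidine ratio −0.45 to −0.30, on the log2 scale. Of the 10 ratios between pairs, 0 to 1 passed an unadjusted p of 0.05 when a library was left out. Over all loci edgeR called 0 under most settings, 1 without +Fe 2, 5 without +Fe 2 and 4, and DESeq2 called 34. Over all loci with 10 counts or more, same-numbered libraries were hardly alike. The correlation of same-numbered deviations was 0.0047 to 0.0424, and 2 of 4 numbers were their own best match. This does not exclude pairing in single quantities: the glutamic acid ratio was higher in replicates 1 and 4 than in 2 and 3 in both groups. With the replicate block the 5 fold changes were 0.20 to 0.21 (edgeR adjusted p = 1.00) and 3 loci were called, none of the 5. The causes were not tested. Depth did not limit the shares, but 4 libraries a group cannot show a small change. In the edgeR fit with TMM scaling the standard errors of the fold changes were 0.245 to 0.281. The spread depended on the scaling as well. Over the 8 libraries the SD of log2 CPM was 0.15 at each of the 5 with library totals, against 0.29 for their sum with TMM.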
